A study of Mus musculus with 16 samples.

Results

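Closely paired shared H3K4me3 regions are stretches of chromosomes 1 to 19 that carried a peak of this histone mark in the lists of all 3 mouse lines and lay within 1 kb of another such region. Overlapping peaks of the 3 lists were merged into one region if they had 1 bp or more in common, and a region was taken when it was wider than 800 bp, narrower than 4000 bp and made of 1 peak per list. The rule found 2428 such regions among 59204 in all, of which 34977 had a peak in every list. H3K4me3 was profiled by ChIP-seq in whole testes of mice aged 13 days post-partum, per the labels. The B6-TgWT mice (C57BL/6J-Tg(RP23-159N6*)43Bdm) and the B6-TgYF mice (C57BL/6JRj-Tg(RP23-159N6*)23Bdm) each carry a transgene beside the Prdm9 gene of their own genome, and the B6 mice (C57BL/6JOlaHsd) carry none. As known from the study, the transgene of B6-TgWT codes for an active PRDM9 and that of B6-TgYF for a protein with a mutated catalytic domain. The names of both transgenic lists carry cast after Tg, a label of the transgene that is not explained further here. Each line had 2 H3K4me3 libraries and 1 input, and 1 deposited peak list. The lines differ in C57BL/6 substrain as well as in the transgene, and each transgene is represented by 1 line. The name of the B6 list carries a d followed by 12, and which age holds for it is not settled here.

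H3K4me3 lies on the nucleosomes beside active transcription start sites, and the start itself is usually kept free of nucleosomes. Where 2 genes start close together on opposite strands, a marked stretch can lie on each side of the open DNA between them. PRDM9, a meiotic histone methyltransferase, places the same mark around the DNA it binds, and the sites of meiotic double-strand breaks are chosen from these. Whole testis at this age holds somatic cells and germ cells, and peak lists do not tell them apart. The labelled tissue was not checked against marker genes here.

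The B6-TgWT list held 46631 peaks on chromosomes 1 to 19, the B6-TgYF list 41558 and the B6 list 50013. Median fold enrichment over background, as the authors gave it, was 6.81, 7.52 and 7.72 in these lists. Read depth is unknown, as the lists hold no counts. With 1 list per line, the spread between replicates is unknown and no test was run. The 95% Wilson intervals below cover counting error over regions only, and regions are not replicates. In shares over paired regions, both partners of a pair are counted as separate, and no interval was corrected for this. A fold enrichment of one list beside that of another shows no change by itself.

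Per 50 bp of gap length, neighbouring shared regions were more often 50 to 300 bp apart than 300 to 3000 bp apart. The gap of a region to its nearest shared neighbour, which the rule capped at 1 kb, had a median of 199.5 bp with quartiles of 91 and 582 bp. It measured over 50 to 100 bp in 652 of the 2428 regions (26.9%, interval 25.1 to 28.7) and over 100 to 200 bp in 527 (21.7%, interval 20.1 to 23.4). A further 499 (20.6%) had gaps over 200 to 500 bp and 711 (29.3%) over 500 to 1000 bp. Among all neighbouring shared regions, the bin starting at 50 bp held 515, while the 50 bp bins from 300 to 3000 bp held between 33 and 66 each. Each of the 5 bins between 50 and 300 bp held 72 or more, above a level stretch that ran on past 1 kb without a step, and the bin up to 50 bp held 22. Only 39 regions (1.61%) had gaps of up to 50 bp. Within each list, the smallest gap between 2 peaks anywhere was 51 bp, and a merged gap can be shorter because different lists can set its 2 edges.

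**Figure D1:**
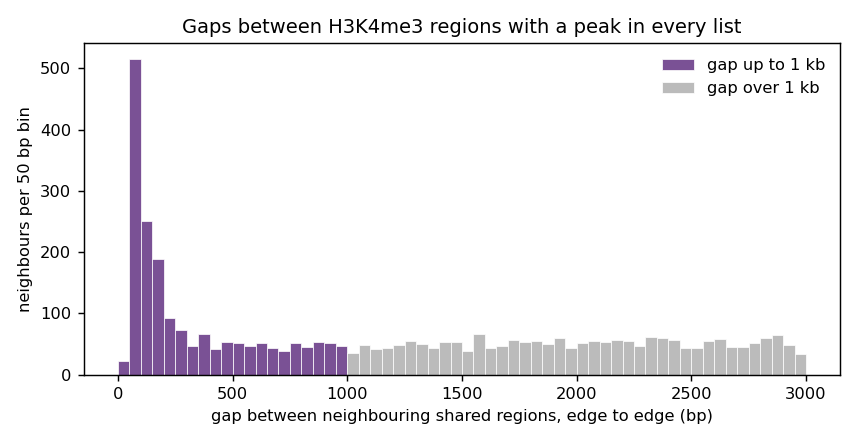
Number of neighbouring regions with a peak in every list (vertical axis, per 50 bp bin) by the gap between them in bp (horizontal axis). Gaps of up to 1 kb are purple and longer ones grey; the bin starting at 50 bp holds 515, and the bins from 300 to 3000 bp hold 33 to 66 each.

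For 1777 of the 2428 regions the nearest shared region was itself a member of the set, and 1692 of them formed 846 pairs in which each region was the other's nearest. A further 85 sat next to a member whose own nearest neighbour lay on its other side. The other 651 adjoined a region outside the set, which was at most 800 bp wide in 437 cases, at least 4000 bp wide in 45 and made of several peaks in some list in 169. Pairs spanned a median of 3463 bp from outer edge to outer edge, with quartiles of 2838 and 4361 bp. Of the 1470 runs of shared regions spaced within 1 kb that held a member, 1331 had 2 regions, 126 had 3, 9 had 4, 3 had 5 and 1 had 6.

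At the upper limit of 1 kb, the 3 regions just inside had gaps of 999 bp, on chromosome 13 at 31716129 to 31719485, 31720485 to 31722759 and 73397309 to 73398957 (mm9, counted from 1). Their fold enrichments ran from 8.65 to 13.49 in B6-TgWT, 8.06 to 16.74 in B6-TgYF and 11.2 to 19.93 in B6. Just outside lay chromosome 13 at 40713110 to 40714042 and 40715045 to 40716081, which are 1002 bp apart, and chromosome 2 at 150511681 to 150515577, with a gap of 1004 bp. These 3 ran from 3.89 to 12.72 in B6-TgWT, 3.8 to 13.4 in B6-TgYF and 4.55 to 17.36 in B6. At the width limits, the narrowest region taken was 801 bp wide and the widest 3979 bp. The next single-peak regions outside measured 800 and 4008 bp.

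Peaks of the B6 list reached farther into the gap than those of the transgenic lists. Within the 846 pairs, the peaks left a median gap of 459.5 bp in B6-TgWT, 412.5 bp in B6-TgYF and 301 bp in B6. The gap was wider in B6-TgWT than in B6 in 713 pairs (84.3%, interval 81.7 to 86.6), by a median of 64 bp over all pairs. In B6-TgYF it was wider than in B6 in 658 pairs (77.8%, interval 74.9 to 80.5), with a median difference of 40 bp. The peaks themselves were also narrower, with median widths over the 2428 regions of 1232.5 bp in B6-TgWT, 1291 bp in B6-TgYF and 1350.5 bp in B6. The 26537 other single-peak shared regions of the same width range showed the same order, at 1362, 1399 and 1474 bp, so the order of widths was not confined to pairs. Over all peaks of the lists the order was the reverse, with median widths of 1212 bp in B6-TgWT, 1170 bp in B6-TgYF and 1108 bp in B6. The median fold enrichment of the whole lists was also lowest in B6-TgWT and highest in B6, and its part in the widths was not tested.

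Summits, the point of highest signal within a peak, had nearly the same median spacing in the 3 lists. Their distance across a pair had a median of 1849 bp in B6-TgWT, 1819 bp in B6-TgYF and 1826 bp in B6. The quartiles were 1239 and 2426 bp, 1222 and 2416 bp, and 1219 and 2425 bp in the same order of lists. Between lists these medians differed by 30 bp at most, while the median gaps differed by up to 158.5 bp. Pair by pair, the gap in B6-TgWT exceeded that in B6 by a median of 64 bp only. Summit distances were not compared pair by pair, and single pairs could differ widely. A pair on chromosome 15 had 1639 bp in B6-TgWT, 475 bp in B6-TgYF and 451 bp in B6. In pairs with gaps of up to 100 bp, the summits lay 1131 bp apart in B6-TgWT, 1113.5 bp in B6-TgYF and 1113 bp in B6 (medians of 228 pairs).

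**Figure D2:**
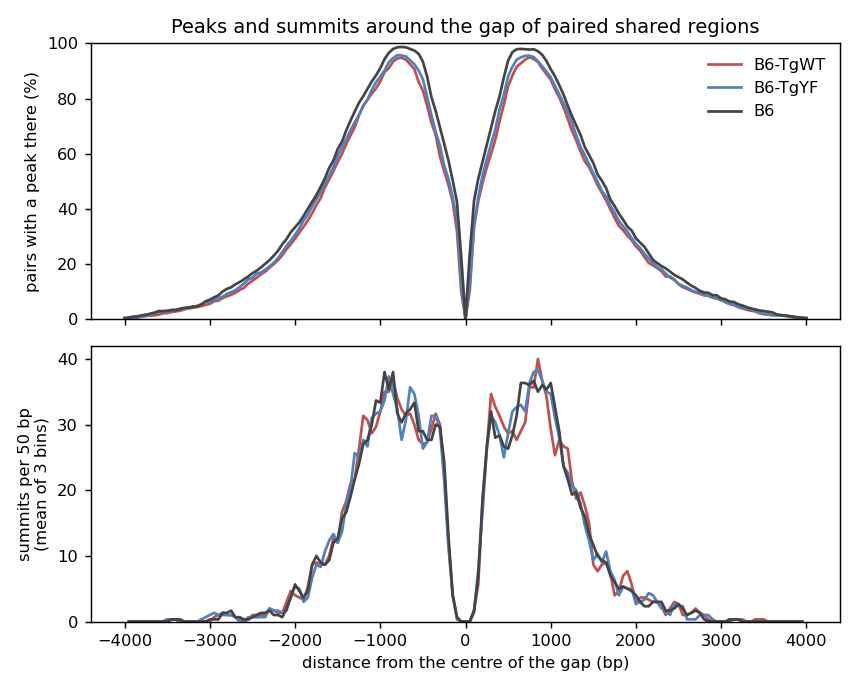
Top, share of the 846 pairs (%) with a peak at each distance in bp from the centre of the gap; bottom, number of summits per 50 bp as the mean of 3 neighbouring bins. The B6 curve lies above those of B6-TgWT and B6-TgYF along the inner edges, while the summits of the 3 lists lie over each other.

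Regions with a near neighbour had their summit on the side of the gap more often than not. The summit lay on the neighbour's side of the peak's middle in 1442 of 2428 regions in B6-TgWT (59.4%, interval 57.4 to 61.3), 1445 in B6-TgYF (59.5%, interval 57.5 to 61.5) and 1475 in B6 (60.7%, interval 58.8 to 62.7). In the 26537 regions without a neighbour that near, the share towards the nearest shared region was 49.6%, 49.6% and 49.5%. Summit positions were not used to choose the regions. All 3 lists placed the summit towards the neighbour in 1084 regions (44.6%) and away from it in 620 (25.5%).

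This lean was seen at short gaps. Among the 691 regions with a gap of up to 100 bp, 74.5% in B6-TgWT (interval 71.2 to 77.6), 74.96% in B6-TgYF (71.6 to 78.05) and 76.6% in B6 (73.3 to 79.6) had the summit towards the neighbour. At gaps over 100 to 200 bp the shares were 63.8%, 63.4% and 62.6% of 527 regions. Over 200 to 500 bp they were 51.5%, 50.5% and 51.1% of 499 regions. Over 500 to 1000 bp they were 47.0%, 47.96% and 50.8% of 711 regions. Beyond 200 bp, each of these intervals included 50% (the lowest was 43.3 to 50.7, in B6-TgWT). Stronger and weaker partners of a pair leaned alike, at 57.4% and 58.0% in B6-TgWT, 59.4% and 56.9% in B6-TgYF, and 60.3% and 57.2% in B6.

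In strength, closely paired regions as a whole resembled other shared regions of their width range. Fold enrichment lay above the list's median in 1502 of the 2428 in the B6-TgWT list (61.9%, interval 59.9 to 63.8), against a background of 62.4% over all 28965 regions of the width range. The corresponding numbers were 1525 in the B6-TgYF list (62.8%, interval 60.9 to 64.7; background 62.6%) and 1825 in the B6 list (75.2%, interval 73.4 to 76.8; background 74.6%). Each of the 3 intervals included the background. The upper end was thinner than in regions without a near neighbour. The highest 10% of the paired regions began at a fold enrichment of 22.3 in B6-TgWT, 25.3 in B6-TgYF and 29.0 in B6, against 25.9, 29.0 and 31.8 in the 26537 others. Median fold enrichments were 8.615, 9.775 and 12.36 in the paired regions and 9.08, 10.22 and 12.87 in the others.

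Strength differed with the gap. Regions with gaps of up to 100 bp had median fold enrichments of 11.15 in B6-TgWT, 12.65 in B6-TgYF and 15.75 in B6. Of these 691 regions, 71.1% (interval 67.6 to 74.3), 73.8% (70.4 to 76.9) and 84.8% (81.9 to 87.3) lay in the stronger 50% of the list. At gaps over 100 to 200 bp the medians were 8.65, 9.56 and 12.21, and the shares were 63.9%, 62.6% and 74.2% of 527 regions, close to the background. At gaps over 200 to 500 bp the medians were 7.52, 8.35 and 10.53, and the shares were 56.9%, 54.9% and 69.3% of 499 regions. At gaps over 500 to 1000 bp the medians were 7.58, 8.8 and 10.92, and the shares were 54.9%, 57.8% and 70.6% of 711 regions. Shares lay above the background at gaps of up to 100 bp and below it at gaps over 200 bp, in all 3 lists.

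The 2 partners of a pair were only loosely alike in strength. Over the 846 pairs, Spearman's rho between the fold enrichments of the left and right partner was 0.257 in B6-TgWT, 0.245 in B6-TgYF and 0.276 in B6. Partners share a library, a list and a local background, so these values are descriptions with no p-value. Neighbouring regions of the same kind 10 to 30 kb apart gave 0.151, 0.157 and 0.159 over 6901 neighbours. The stronger partner exceeded the weaker by a median factor of 1.60 in B6-TgWT, 1.62 in B6-TgYF and 1.61 in B6, with upper quartiles of 2.43, 2.43 and 2.30. At 10 to 30 kb the median factors were 1.74, 1.74 and 1.73.

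**Figure D3:**
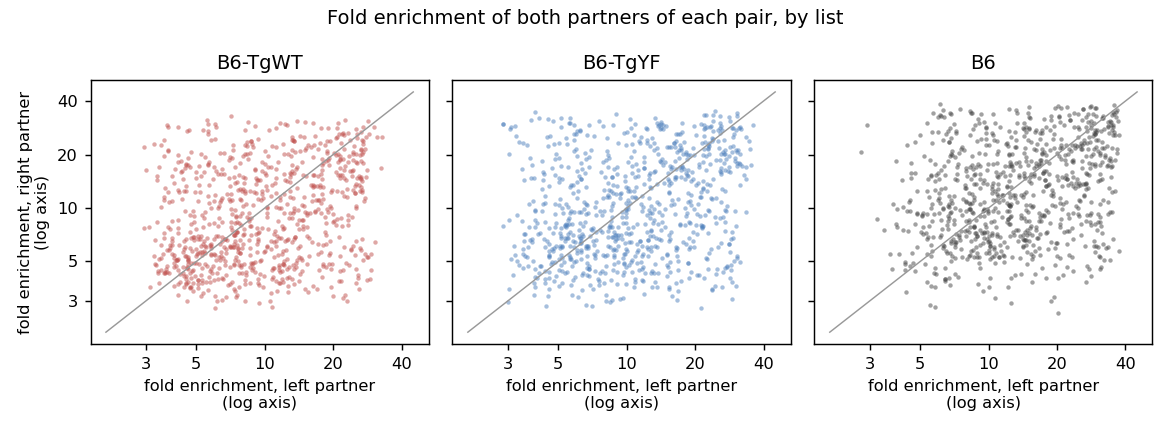
Fold enrichment of the left partner (horizontal, log axis) and right partner (vertical, log axis) of each of the 846 pairs, in 1 panel per list; the grey line marks equal values. The points spread widely around the line in every panel, with rho of 0.257 in B6-TgWT, 0.245 in B6-TgYF and 0.276 in B6.

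Likeness did not fall steadily with the gap. In the 228 pairs with gaps of up to 100 bp, rho was 0.369 in B6-TgWT, 0.374 in B6-TgYF and 0.373 in B6. In the 128 pairs with gaps over 200 to 400 bp it was -0.032, 0.004 and 0.084. In the 162 pairs with gaps over 700 to 1000 bp it was 0.376, 0.324 and 0.371, and at 1 to 2 kb it was 0.115, 0.150 and 0.132 over 682 neighbours. In the 170 pairs with gaps over 100 to 200 bp rho was 0.190, 0.164 and 0.206, and in the 158 over 400 to 700 bp 0.113, 0.079 and 0.080. The pairs with the shortest and the widest gaps therefore had the highest rho, although they differed in level. No intervals were computed for rho by gap class, so how far these small classes truly differ is unknown. Both partners lay in the stronger 50% of the list in 53.5% of the pairs with gaps of up to 100 bp in B6-TgWT, 57.5% in B6-TgYF and 73.7% in B6. At over 700 to 1000 bp this held for 34.6%, 34.0% and 48.8%, and neither partner was that strong in 30.9%, 24.7% and 15.4%. Neighbours 10 to 30 kb apart had no partner in the stronger 50% in 14.7%, 15.0% and 6.54%.

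**Figure D4:**
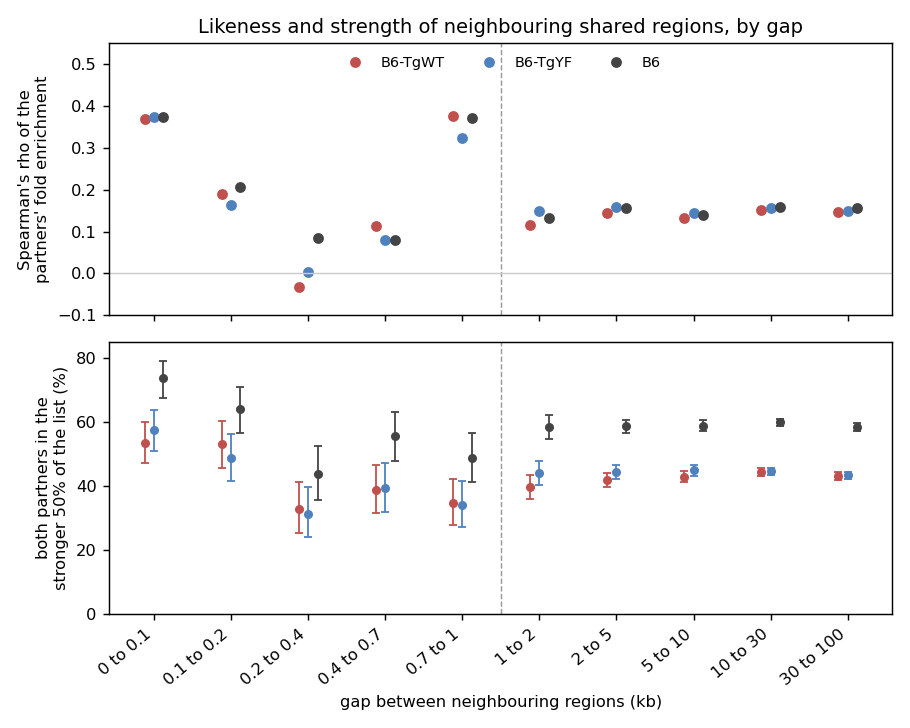
Top, Spearman's rho between the fold enrichments of neighbouring single-peak shared regions; bottom, share of neighbours (%) with both in the stronger 50% of the list, with 95% Wilson intervals, by gap in kb. Left of the dashed line are the pairs; rho is highest at gaps of up to 0.1 kb and of 0.7 to 1 kb, and the share with both strong is highest at up to 0.1 kb in all 3 lists.

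Which partner was the stronger was mostly the same in the 3 lines. The same partner had the higher fold enrichment in every list in 604 of 846 pairs (71.4%, interval 68.3 to 74.3). For neighbours 10 to 30 kb apart the share was 73.4% (interval 72.3 to 74.4), which lies inside the interval of the pairs. Between single lists, the order was the same in 693 pairs (81.9%) for B6-TgWT and B6, 694 (82.0%) for B6-TgYF and B6, and 666 (78.7%) for the 2 transgenic lines. Neighbours 10 to 30 kb apart had 80.7%, 82.7% and 83.2%, so the pairs were lower for the transgenic lines and close for the other comparisons. The log2 ratio of left to right partner ranked alike across lists, with rho of 0.817, 0.851 and 0.849 in that order of comparisons. At 10 to 30 kb rho was higher in each, at 0.857, 0.886 and 0.883. Where the ratio in B6 exceeded 2, which held for 272 pairs, 261 had the same stronger partner in all lists (96.0%), close to the 96.2% of such neighbours 10 to 30 kb apart. The ratio exceeded 2 towards the same partner in every list in 177 pairs (20.9%), against 29.0% of neighbours 10 to 30 kb apart.

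The stronger partner was usually the wider one. This held in 587 of 845 untied pairs in B6-TgWT (69.5%, interval 66.3 to 72.5), 602 of 845 in B6-TgYF (71.2%, interval 68.1 to 74.2) and 577 of 846 in B6 (68.2%, interval 65.0 to 71.3). It was not particular to pairs, since among neighbours 10 to 30 kb apart the shares were 74.4%, 74.2% and 72.2%. Pairs were also classed within each list by how many partners lay in its stronger 50%. The class was both partners in every list for 312 pairs (36.9%). It was exactly 1 partner, whichever it was, in every list for 153 (18.1%), and neither in every list for 55 (6.501%). In the remaining pairs the class differed between lists. Their thresholds are the lists' own medians, which sit at different fold enrichments.

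The strongest pairs, by mean rank within the lists over both partners, had gaps of up to 108 bp in 5 of 6 cases. Of all 846 pairs, 228 had gaps of up to 100 bp and 170 had gaps over 100 to 200 bp. As given above, regions with gaps of up to 100 bp were also the strongest gap class. The first lay on chromosome 12, with a left region at 110029593 to 110031469 and a right region at 110031536 to 110034124, separated by 66 bp. Its left partner had fold enrichments of 28.36 in B6-TgWT, 30.59 in B6-TgYF and 35.44 in B6, and its right partner 31.04, 34.39 and 37.8. The right partner was the higher one in every list, by a factor of at most 1.12, and the summits lay 1234 to 1338 bp apart.

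The second pair, on chromosome 5 at 25002253 to 25004643 and 25004752 to 25006834, had a gap of 108 bp. Its fold enrichments were 30.17 and 28.44 in B6-TgWT, 30.59 and 32.82 in B6-TgYF, and 29.36 and 36.47 in B6, left partner first. Here the order of the partners in B6-TgWT was opposite to that in B6-TgYF and B6, and the summits lay only 653 to 731 bp apart. The third pair, on chromosome 19 at 4394913 to 4397225 and 4397282 to 4399268, had a gap of 56 bp. It reached 25.08 and 27.84 in B6-TgWT, 35.88 and 29.39 in B6-TgYF, and 37.06 and 30.99 in B6. Again the right partner was higher in B6-TgWT and the left partner in the other lists.

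The fourth pair lay on chromosome 3 at 138736702 to 138738206 and 138738303 to 138739482, 96 bp apart. Its values were 31.3 and 25.07 in B6-TgWT, 29.02 and 28.03 in B6-TgYF, and 36.33 and 34.71 in B6, with the left partner higher throughout. The fifth lay on chromosome 13 at 112597100 to 112599232 and 112599305 to 112600527, 72 bp apart, with ratios between partners of 1.02 to 1.10. The sixth was unlike the others. It lay on chromosome 11 at 51812552 to 51815790 and 51816694 to 51818793, with a gap of 903 bp and summits 4439 to 4490 bp apart. Its partners had 26.48 and 26.71 in B6-TgWT, 21.27 and 29.68 in B6-TgYF, and 36.69 and 35.52 in B6.

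The most unequal pairs joined a region with a fold enrichment of at least 20.59 to one with at most 6.31. The first lay on chromosome 3 at 17951484 to 17952964 and 17953275 to 17956463, with a gap of 310 bp. Its left partner had 3.25 in B6-TgWT, 3.24 in B6-TgYF and 2.74 in B6, and its right partner 22.82, 28.94 and 20.59. The right partner was 7.02, 8.93 and 7.51 times as high. On chromosome 9, regions at 78433725 to 78434547 and 78434733 to 78436750 had 3.74 and 28.44 in B6-TgWT, 2.86 and 29.85 in B6-TgYF, and 6.31 and 35.74 in B6. This pair had the largest single ratio of the 4, at 10.4 in B6-TgYF.

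On chromosome 11, the left region at 60511871 to 60514644 was the strong one and the region at 60515502 to 60516755 the weak one, with ratios of 5.33 in B6-TgWT, 9.45 in B6-TgYF and 6.71 in B6. On chromosome 1, the region at 75473593 to 75476969 exceeded that at 75472151 to 75473477 by ratios of 6.68, 9.14 and 5.31 in the same lists. In each of the 4 pairs the ratio was largest in B6-TgYF, and the pairs were chosen for a large mean ratio over the lists.

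**Figure D5:**
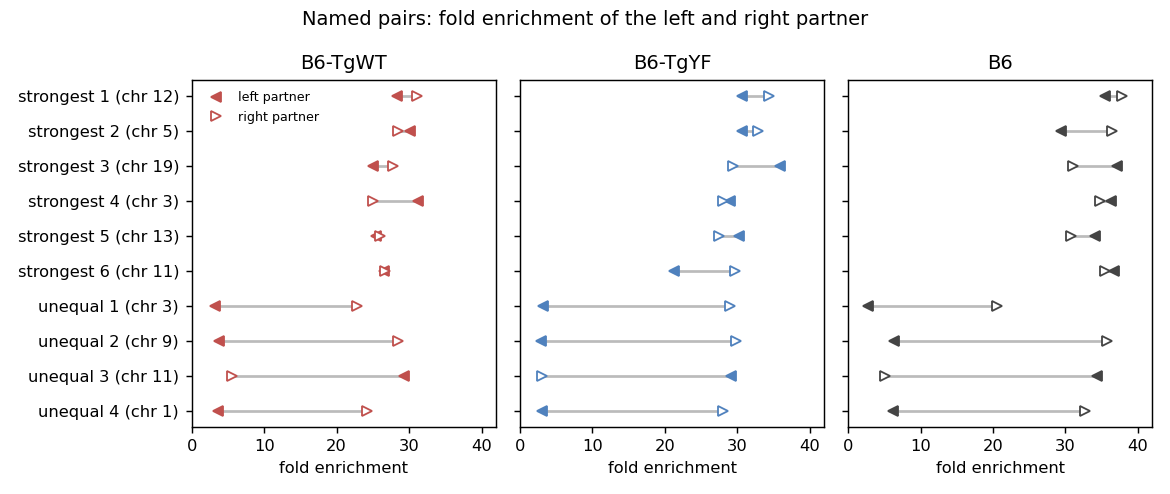
Fold enrichment (horizontal axis) of the left partner (filled) and right partner (open) in the 6 strongest and the 4 most unequal pairs, named by chromosome, with 1 panel per list. The strongest pairs lie between 21.27 and 37.8 in both partners, and the unequal ones join values of at most 6.31 to values of at least 20.59.

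The 4 shortest gaps joined regions of varied strength. On chromosome 2 at 38209702 to 38211206 and 38211208 to 38213730, 1 bp separated partners with 5.64 and 11.72 in B6-TgWT, 7.92 and 12.6 in B6-TgYF, and 6.05 and 11.32 in B6. On chromosome 17 at 89152290 to 89153664 and 89153667 to 89155334, 2 bp separated partners with 3.83 and 7.61, 6.74 and 5.98, and 10.2 and 8.33. The order of these partners in B6-TgWT was opposite to that in B6-TgYF and B6. On chromosome 19 at 59531859 to 59535713 and 59535716 to 59536991, 2 bp separated an unequal pair with 13.81 and 5.07 in B6-TgWT, 16.7 and 3.03 in B6-TgYF, and 20.26 and 4.03 in B6. On chromosome 6 at 145308029 to 145308939 and 145308947 to 145310439, 7 bp separated partners that were both weak, with 5.88 and 4.32 in B6-TgWT, 3.96 and 4.1 in B6-TgYF, and 8.9 and 5.58 in B6.

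The longest run with a member of the set held 6 regions within 7899 bp of chromosome 13, from 21806161 to 21814059, of which 4 were members. Its first region, at 21806161 to 21807737, had fold enrichments of 4.46 in B6-TgWT, 8.16 in B6-TgYF and 13.24 in B6. The other 5 lay between 5.04 and 9.68 in B6-TgWT, 5.46 and 8.43 in B6-TgYF, and 7.52 and 12.21 in B6. Gaps within the run measured 116 to 417 bp. The run held none of the strongest pairs described above.

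Regions whose nearest neighbour was narrow were usually the stronger ones. The 437 regions beside a shared region of at most 800 bp had median fold enrichments of 8.34 in B6-TgWT, 9.45 in B6-TgYF and 11.84 in B6, and their neighbours 4.78, 5.21 and 6.83. The wider region was the stronger in 78.9%, 80.1% and 79.9% of these cases. Beside the 45 neighbours of at least 4000 bp the order was turned round, with medians of 7.6, 8.16 and 12.84 for the paired regions and 18.07, 21.58 and 24.33 for the neighbours. The width that sorted these neighbours also goes with strength, so these orders are a description of the rule's outcome.

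Relative standing among the 28965 regions of the width range was compared between lists, since the same regions are ranked in each. A rank higher by over 20 points in B6-TgWT than in B6 was found for 154 of the 2428 paired regions (6.34%, background 6.69%), and a rank lower by that much for 145 (5.97%, background 6.38%). Between B6-TgYF and B6 the numbers were 115 higher (4.74%, background 5.53%) and 113 lower (4.65%, background 5.04%). Between B6-TgWT and B6-TgYF, 109 were higher (4.49%, background 5.36%) and 121 lower (4.98%, background 5.63%). The median absolute shift was 7.20 points for B6-TgWT and B6, 6.87 for B6-TgYF and B6 and 6.40 for the transgenic lists, against 7.74, 7.14 and 6.73 in regions without a near neighbour. Every share lay slightly under its background, and every interval included that background.

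A peak of fewer than 3 lists lay in the gap of 3 of 846 pairs (0.355%, interval 0.121 to 1.04), with a peak of B6 alone in 2 and of B6-TgYF and B6 in 1, and none held a peak of B6-TgWT alone. All 3 cases were among the 376 gaps over 300 bp (0.798%, interval 0.272 to 2.32). No share for other stretches of the same length was computed. By the rule, a shared region takes up space within 1 kb of every paired region, which leaves less room for other regions than beside the rest. The shares below were not corrected for this, so those within 1 kb cannot be read as fewer or equally many sites beside pairs. Regions of the B6-TgWT list alone lay within 1 kb of 12 paired regions (0.494%, interval 0.283 to 0.862) and of 293 regions without a near shared neighbour (1.10%, interval 0.985 to 1.24). Within 5 kb the shares were 4.04% (interval 3.32 to 4.89) and 4.91% (4.66 to 5.18). Regions of the B6 list alone lay within 1 kb of 2.51% of the paired regions (interval 1.96 to 3.21) and 2.53% of the others (2.35 to 2.73), and within 5 kb of 9.31% of the paired regions (interval 8.22 to 10.5) and 6.75% of the others (6.45 to 7.05).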

How the data were processed

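H3K4me3 was analysed in 3 mouse lines with 2 ChIP libraries and 1 input each; 7 DMC1 libraries were not analysed here. Per the submitters' processing notes, the build was mm9 and the tools were MACS2, BWA, Bowtie2 and CASAVA, without roles. The way replicates were combined and the cutoff of the peak caller were not given in those sources. The deposited lists have 10 columns without a header, read in the usual order of MACS files. The deposited fold enrichment is the authors' ratio to background, the deposited score is 10 times the −log10 p, truncated, in every row, and the deposited −log10 p and −log10 q were used for alternatives. Starts were shifted to count from 1.

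Members and comparisons were chosen with earlier results of these data known. Percentiles and medians of strength are over chromosomes 1 to 19 of a list. Pairs are members that are each other's nearest shared region. Named pairs were the 6 strongest, the 4 most unequal with the same order in all lists and the 4 shortest gaps. The longest run with a member and 3 regions on each side of the 1 kb limit were named as well. Region joining and pairing were tested on simulated data. No mm9 genome or annotation was used here, so genes, promoters and sequences are not given. The scripts ran under Python 3.11.15 with matplotlib 3.10.9, scipy 1.17.1, pandas 2.3.3 and numpy 2.4.6.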

Additional observations from a re-analysis of the deposited data

Results flagged for a closer look

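Chromosome X was left out by the rule, and the same criteria found 57 closely paired shared regions on it, in 16 pairs. They made up 8.88% of the 642 single-peak shared regions of the width range on X (interval 6.92 to 11.3), against 8.38% of the 28965 on chromosomes 1 to 19.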

How the results depend on the processing

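Over 18 results and 8 alternatives, 98 of 136 recomputed values stayed within the interval of the value reported, or for the count within 1.5 times it, and 38 did not. Joining only peaks that overlap by 50% of the shorter one, a common floor of −log10 p of 12 and adding chromosome X moved none of them. No paired analysis was possible because the deposited lists do not separate replicates, and for the same reason none could be left out. Gene starts and sequence in the gaps were not run, as no mm9 reference was used here. Unknown depth limits every call of a gap or an absent peak. Values below are in the order B6-TgWT, B6-TgYF, B6 where 3 are given, and the gap, width and strength settings change the set of regions by construction.

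Keeping the strongest 75% of each list left 1516 members. The share in the stronger 50% was 58.3% in B6-TgYF, with no background computed for this setting. The summit lay towards the partner in 62.8% in B6, and the ratio of stronger to weaker partner was 1.52, 1.47 and 1.47. With −log10 q as strength this ratio was 2.16, 2.11 and 1.95, and 81.9% of pairs had the same stronger partner in every list; the cause was not tested.

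With gaps of up to 500 bp, 64.8%, 64.9% and 77.1% lay in the stronger 50%, summits lay towards the partner in 64.5%, 64.3% and 64.9% and 1483, 1469 and 1448 bp apart, and 0% of the 577 gaps held a peak of fewer lists (interval to 0.661%). With gaps of up to 2 kb there were 3871 members, summits towards the partner in 55.4%, 56.2% and 56.7% and 2418, 2393 and 2418 bp apart, and 2.03% of gaps held such a peak.

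Without width limits, 52.6%, 53.1% and 66.9% lay in the stronger 50%, with no background computed for this setting. Summits lay towards the partner in 62.8%, 63.5% and 64.5% and 1363, 1374 and 1356 bp apart, and rho between partners was 0.188 in B6-TgWT.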

Other observations

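Closely paired regions lay in fuller surroundings. Besides the nearest neighbour, the 50 kb to each side of a paired region held a median of 3 further shared regions (quartiles 2 and 6). Regions without a near neighbour had 2 (quartiles 1 and 4). The nearest region was left out for the paired regions only. By the rule, the others had no shared region within 1 kb, and the counts were not corrected for this. Regions of B6-TgYF and B6 without B6-TgWT lay within 5 kb of 5.72% of the paired regions (interval 4.87 to 6.72) and of 3.92% of the others (3.70 to 4.16). Within 1 kb the shares were 1.28% (0.901 to 1.81) and 1.23% (1.10 to 1.37), not corrected for the space that the near neighbour of a paired region takes up.

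The share of single-peak shared regions that were closely paired differed between chromosomes. It was highest on chromosome 15, at 10.2% (interval 8.63 to 11.997), and chromosome 13, at 10.02% (8.54 to 11.7). It was lowest on chromosome 1, at 6.47% (5.43 to 7.69), and chromosome 14, at 6.52% (5.196 to 8.16). Over all of chromosomes 1 to 19 it was 8.38%, which the intervals of most chromosomes included. Both partners of a pair enter the count together, so these intervals are too narrow, and the chromosomes named are the extremes of 19.

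Pairs with gaps over 700 to 1000 bp kept the same stronger partner in every list in 63.6% (interval 55.9 to 70.6). This was the lowest share of the 5 gap classes of pairs, and the class is named for that. The others ran from 72.4% to 75%. This class also had the fewest pairs with a ratio over 2 towards the same partner in every list, at 14.2%. The other classes had 18.4% to 27.2%, and a link between the 2 shares was not tested.

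A further 1825 shared regions held several peaks in at least 1 list and could not be members. They were split in B6-TgWT alone in 625 cases, in B6-TgYF alone in 398, in B6 alone in 107 and in every list in 43.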
